A study of Mus musculus with 16 samples.

Results

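The sebaceous gland lipid genes described here are 9 genes chosen by symbol, Scd1, Scd3, Elovl3, Awat1, Awat2, Mc5r, Soat1, Far2 and Krt79. The rule lists the symbols and uses no measured value, but the members were chosen with earlier results of these data known. All 9 were found among the 55359 gene identifiers counted, and all 9 passed the filter on low counts that left 17531 genes for testing. The genes were followed through poly(A) RNA-seq of whole dorsal skin in 4 groups with 4 libraries each. All mice were male, 8 weeks old and labelled telogen, which means resting hair follicles. The groups were Tnfrsf1a/b KO mice after 3xUVB (KO UVB), Tnfrsf1a/b KO mice without UVB (KO control), WT mice after 3xUVB (WT UVB) and WT mice without UVB (WT control).

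KO stands for knockout of the genes of both TNF receptors, TNFR1 and TNFR2. No allele, strain, UVB dose, interval between exposures or time to collection is given in the sources used here. Whether each library is 1 animal is not stated, and the p-values reflect only how these libraries vary. In whole skin, fewer cells of a type and less RNA per cell cannot be told apart.

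Sebaceous glands sit beside the hair follicle and release sebum, which coats hair and skin. Their cells, the sebocytes, lengthen and desaturate fatty acids, reduce some of them to fatty alcohols, and join acids and alcohols into wax esters. They also esterify cholesterol, fill with lipid droplets and finally burst. Of the genes followed here, Elovl3 encodes a fatty acid elongase, Scd1 and Scd3 encode stearoyl-CoA desaturases, and Far2 encodes a fatty acyl-CoA reductase that makes fatty alcohols. Awat1 and Awat2 encode acyl-CoA wax alcohol acyltransferases, and Soat1 encodes the sterol O-acyltransferase that makes cholesteryl esters. Mc5r encodes the melanocortin 5 receptor, through which melanocortin peptides promote sebum secretion in mice. Krt79 encodes a keratin of the sebaceous duct and the upper hair follicle.

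Libraries held 15644375 to 23200649 reads in genes. Values below are CPM, read counts scaled to library size with TMM factors, given by library 1 to 4 of each group, and differences are log2 fold changes ± SE. A call is an adjusted p below 0.05 in edgeR's quasi-likelihood test with Benjamini-Hochberg adjustment over all 17531 genes. Tnfrsf1a was lower in KO than in WT by log2 fold changes of -0.66 ± 0.07 with UVB and -0.74 ± 0.07 without. Tnfrsf1b was also lower, by -1.02 ± 0.21 with UVB and -1.47 ± 0.21 without. For both genes every library labelled KO lay below every library labelled WT of the same treatment, and reads of both remained in the KO libraries. The telogen label fitted the groups unequally, since the summed CPM of 22 genes of the growing (anagen) hair follicle was 19.9 to 35.7 in KO UVB, 104 to 342 in KO control, 28.2 to 204 in WT UVB and 1283 to 3258 in WT control skin.

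Per length of their exons, the members spanned a wide range of levels, and most of the order was common to the 4 groups. Scd1 was the most abundant in every group, at 744 ± 224 CPM per kb in KO UVB, 629 ± 107 in KO control, 825 ± 89.0 in WT UVB and 923 ± 228 in WT control skin (SD, n = 4 each). Mc5r was the least abundant in every group, at 6.36 ± 2.97 CPM per kb in KO UVB, 4.83 ± 0.790 in KO control, 9.57 ± 2.48 in WT UVB and 5.90 ± 1.01 in WT control skin. Krt79 stood below Scd1 in mean level in every group, at 303 ± 115 CPM per kb in KO UVB, 154 ± 17.9 in KO control, 291 ± 46.4 in WT UVB and 189 ± 38.9 in WT control skin. Soat1 and Awat2 stood just above Mc5r, with group means of 11.5 to 20.3 CPM per kb for Soat1 and 22.5 to 31.8 for Awat2. The middle of the order, held by Scd3, Elovl3, Awat1 and Far2, changed with UVB and genotype. Elovl3 had the lowest mean of these 4 genes in both control groups, at 36.1 ± 9.44 CPM per kb in KO and 33.3 ± 5.37 in WT, and the highest in both UVB groups, at 167 ± 73.3 in KO and 147 ± 28.0 in WT. In WT UVB skin its spread overlapped those of Scd3 (138 ± 27.7), Awat1 (132 ± 26.9) and Far2 (128 ± 22.7). In KO UVB skin Scd3, at 51.8 ± 18.8 CPM per kb, stood below Far2 (107 ± 35.4), Awat1 (123 ± 22.2) and Elovl3.

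After UVB, Elovl3 rose 4.61-fold in KO and 4.43-fold in WT skin, and the wax ester genes Far2 and Awat1 rose in both. Scd3 fell in KO skin. Soat1 and Krt79 were called higher in KO, at log2 fold changes of 0.67 and 0.97, and lay on the same side without a call in WT, at 0.58 and 0.63, and the interaction of genotype and UVB was called for neither. Of the 9 members, 5 were called higher and 1 lower in KO UVB against KO control skin, where 32.3% of all tested genes were called, 17.2% higher and 15.1% lower. In WT UVB against WT control skin 3 members were called higher and 0 lower, where 18.8% of all tested genes were called, 10.2% higher and 8.60% lower. The median log2 fold change of the members was 0.67 in KO and 0.63 in WT, against -0.02 and -0.03 over all tested genes.

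**Figure D1:**
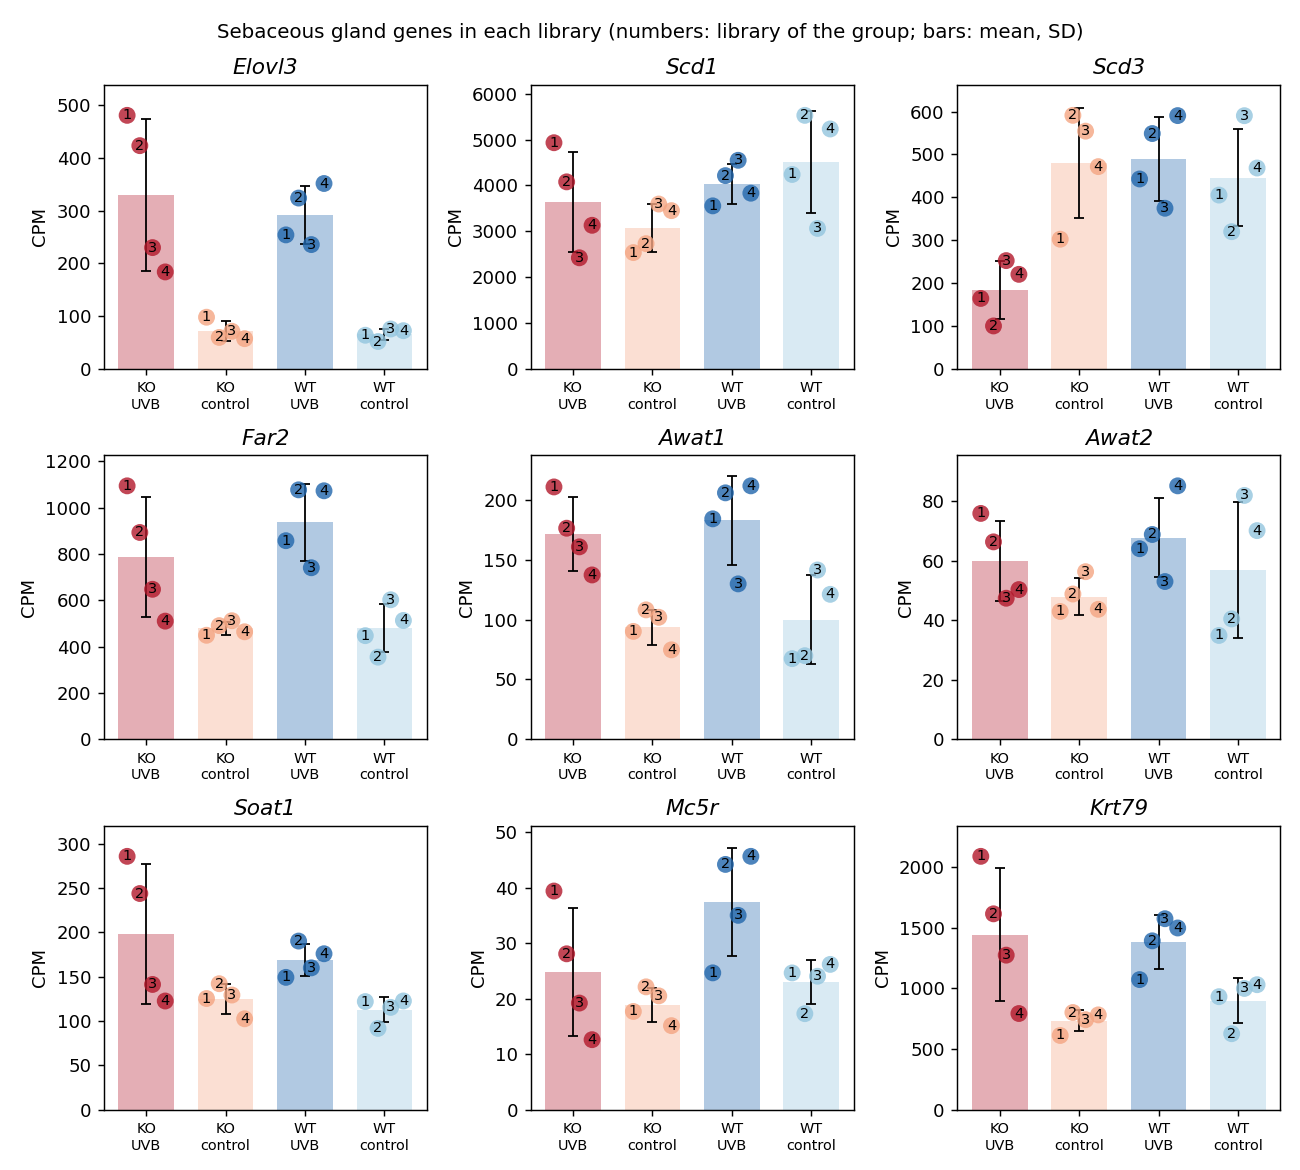
CPM of each of the 9 genes (vertical axes, from 0) in the 4 libraries of KO UVB, KO control, WT UVB and WT control skin; bars give the group mean, error bars the SD and the digits the library number. Elovl3 is at 184 CPM or more in every UVB library and at 97.8 CPM or less in every control library, and Scd3 is lowest in the 4 KO UVB libraries.

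Elovl3 makes very long chain saturated and monounsaturated fatty acids, and mice without it have sparse fur and disturbed sebum. It was at 481, 423, 229.9 and 184 CPM in the KO UVB libraries, against 97.8, 59.5, 71.1 and 57.1 CPM in the KO control libraries. WT skin held 254, 324, 236 and 351 CPM of Elovl3 in the UVB libraries, against 63.6, 51.7, 75.4 and 72.3 CPM in the control libraries. Every UVB library lay above every control library in both genotypes. On the log2 scale it rose by 2.21 ± 0.28 in KO (adjusted p = 7.83e-05) and by 2.15 ± 0.28 in WT (adjusted p = 0.000115), by edgeR's quasi-likelihood test. The interaction of genotype and UVB, which is the difference between these effects, was 0.06 ± 0.38 on the log2 scale, with a 95% interval of -0.74 to 0.86 (adjusted p = 0.962). Brown and beige fat also express Elovl3. Ucp1, a marker of such fat, was at 0.194 CPM or less in every library, and the summed level of 6 genes of the list, Cidea included, was 162 to 208 CPM in KO UVB, 129.9 to 218 in KO control, 185 to 228 in WT UVB and 119 to 168 in WT control skin. Of its 5 tested genes, 2 were called higher and 1 lower in KO and 2 higher in WT, led by Dio2 (1.26 ± 0.21 in KO and 1.65 ± 0.22 in WT). Cidea was also among those called higher in both genotypes, and it is counted again below as a sebocyte marker. Of all tested genes, 17.2% were called higher and 15.1% lower in KO, and 10.2% higher and 8.60% lower in WT. The part of brown and beige fat in the Elovl3 values was not tested.

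Far2 was at 1094, 893, 647 and 510.0 CPM in KO UVB skin, against 449, 491, 512 and 464 CPM in KO control skin. WT skin held 857, 1077, 740.4 and 1073 CPM of Far2 with UVB, against 447, 355, 602 and 513 CPM without. The WT groups did not overlap, whereas the fourth KO UVB library lay inside the KO control range. Far2 rose by 0.72 ± 0.21 on the log2 scale in KO (adjusted p = 0.0172) and by 0.97 ± 0.21 in WT (adjusted p = 0.00538). Without KO UVB library 1 the KO value was 0.52 and was no longer called (adjusted p = 0.0632). Reads on the opposite strand came to 2.84% to 4.16% of the reads at Far2 in the 4 groups, the largest share among the members.

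The wax ester synthase Awat1 was at 211, 176, 161 and 137 CPM in KO UVB skin, against 90.2, 108, 102 and 74.8 CPM in KO control skin. Awat1 in WT was at 184, 206, 129.9 and 212 CPM with UVB, against 67.4, 69.9, 141 and 121 CPM without. The KO groups did not overlap, and in WT the third UVB library lay below the third control library. Awat1 rose by 0.87 ± 0.23 on the log2 scale in KO (adjusted p = 0.00998) and by 0.87 ± 0.23 in WT (adjusted p = 0.0164). In WT the value was 0.74 (adjusted p = 0.0520) when control library 1 was left out and 0.73 (adjusted p = 0.0534) when control library 2 was, and neither was called.

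Awat2, which also makes retinyl esters, was at 75.8, 66.3, 47.4 and 50.3 CPM in KO UVB skin, against 42.9, 48.8, 56.3 and 43.6 CPM in KO control skin. Awat2 in WT was at 64.0, 68.8, 53.0 and 85.1 CPM with UVB, against 34.9, 40.4, 81.9 and 70.1 CPM without. The groups overlapped in both genotypes, and the WT control libraries fell into a lower and a higher pair for both Awat1 and Awat2. The log2 fold change of Awat2 was 0.32 ± 0.24 in KO (95% interval -0.19 to 0.83) and 0.25 ± 0.24 in WT (-0.26 to 0.76), and neither passed the test (adjusted p = 0.324 and 0.497).

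Within a library, the ratio of Awat1 to Awat2 was higher with UVB. There were 2.78, 2.66, 3.40 and 2.73 reads of Awat1 per read of Awat2 in the KO UVB libraries, against 2.10, 2.22, 1.81 and 1.71 in the KO control libraries. In WT the ratio was 2.88, 3.00, 2.45 and 2.49 with UVB, against 1.93, 1.73, 1.73 and 1.73 without. Every UVB library was above every control library in each genotype, a ratio free of library size. It was singled out after the values were seen and was not tested. Among the 36 pairs of members, such ratios did not overlap between UVB and control in 19 pairs in KO and 12 pairs in WT. These pairs reuse the same 9 genes, and the share over pairs of all tested genes was not computed. The pair counts are therefore only a description. Taken singly, 3 of the 9 members did not overlap in KO (Scd3, Elovl3 and Awat1) and 4 in WT (Elovl3, Soat1, Far2 and Krt79), against 25.1% of all tested genes in KO and 28.2% in WT.

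Awat1 and Awat2 both lie on the X chromosome, on opposite strands. Their promoter windows are shown because the levels of these related genes moved apart within libraries. The windows come from RefSeq (GRCm38.p6), run from 250 bases before to 50 bases after an annotated start, and read 5′ to 3′ on the strand of the gene. Capitals mark CCAAT or its reverse complement ATTGG. The windows are chrX:100571997-100572296 (plus strand) for Awat1, and chrX:100442668-100442967 and chrX:100412538-100412837 (minus strand) for the 2 starts of Awat2.
Awat1: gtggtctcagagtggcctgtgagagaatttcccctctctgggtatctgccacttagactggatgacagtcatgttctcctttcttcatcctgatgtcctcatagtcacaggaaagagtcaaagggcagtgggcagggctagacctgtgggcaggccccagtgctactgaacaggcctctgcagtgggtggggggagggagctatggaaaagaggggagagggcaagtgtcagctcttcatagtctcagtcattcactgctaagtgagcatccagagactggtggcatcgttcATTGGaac
Awat2 first start: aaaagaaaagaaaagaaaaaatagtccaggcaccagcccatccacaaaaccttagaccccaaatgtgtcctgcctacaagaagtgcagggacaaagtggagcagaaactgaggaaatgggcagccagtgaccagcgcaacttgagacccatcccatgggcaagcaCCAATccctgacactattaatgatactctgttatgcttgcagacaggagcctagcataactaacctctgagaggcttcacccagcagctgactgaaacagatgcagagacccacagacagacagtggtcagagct
Awat2 second start: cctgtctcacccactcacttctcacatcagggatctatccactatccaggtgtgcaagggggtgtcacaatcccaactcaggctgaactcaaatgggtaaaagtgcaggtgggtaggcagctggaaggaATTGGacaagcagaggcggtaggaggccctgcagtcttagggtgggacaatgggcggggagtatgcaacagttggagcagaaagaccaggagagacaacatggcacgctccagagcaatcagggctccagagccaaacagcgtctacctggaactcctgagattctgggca
Both strands were searched for 7 motifs. They were the TATA box (TATAAA), a nuclear receptor motif (AGGTCA), the DR1 element (a pair of AGGTCA with any 1 base between them, so that each DR1 match is also an AGGTCA match), a sterol element (TCACNCCAC), the E-box (CACGTG), the CCAAT box (CCAAT) and an NF-kB site (GGG, any 2 bases, then TTTCC). Only the CCAAT box was matched in these windows, at position 42 in Awat1 and at -85 and -121 in the 2 windows of Awat2, with the start base as 0. It was also matched at -30 in Soat1 and is found in 37.4% of the 32851 RefSeq promoter windows of that length. The windows of Soat1, Far2, Krt79 and Scd3 held no match to the other 6 motifs. Of all windows, 13.6% hold the TATA box, 16.3% AGGTCA, 0.0396% the DR1 element, 1.24% the sterol element, 7.15% the E-box and 1.63% the NF-kB site. Windows were matched for 6 of the 9 members, and those of Scd1, Elovl3 and Mc5r were not analysed here.

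The stearoyl-CoA desaturases put the first double bond into saturated fatty acids, and loss of Scd1 in mice leaves small, underfilled sebaceous glands. Scd1 was at 4932, 4078, 2421 and 3130.3 CPM in KO UVB skin, against 2535, 2729.6, 3594 and 3450.1 CPM in KO control skin. WT libraries held 3554, 4214, 4548 and 3831 CPM of Scd1 with UVB, against 4239, 5529, 3062 and 5232 CPM without. The groups overlapped in both genotypes. The difference was 0.24 ± 0.22 in KO on the log2 scale (95% interval -0.23 to 0.71, adjusted p = 0.427) and -0.16 ± 0.22 in WT (-0.63 to 0.31, adjusted p = 0.646). Fat cells also express Scd1. The summed CPM of 12 adipocyte genes ranged from 4156 to 9819 in KO UVB, 7299 to 8655 in KO control, 3873 to 6443 in WT UVB and 4983 to 10516 in WT control skin, with none of the 12 at 0. By edgeR 0 of the 12 were called with UVB in either genotype, with 1 at an unadjusted p below 0.05 in each. Their log2 fold changes with UVB were mostly negative, with 1 of the 12 positive in KO and 0 in WT. The medians were -0.29 in KO and -0.41 in WT. The part of fat cells in the Scd1 values was not tested.

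Scd3, an isoform found in the sebaceous glands of mouse skin, was the one member called lower with UVB. It was at 164, 99.9, 252 and 220.2 CPM in the KO UVB libraries, against 302, 591, 554 and 471 CPM in the KO control libraries. Scd3 in WT was at 443, 549, 374 and 590.5 CPM with UVB, against 405, 319.8, 590.3 and 468 CPM without. The highest KO UVB library lay below the lowest library of each other group, while the WT groups overlapped. The log2 fold change with UVB was -1.38 ± 0.28 in KO (adjusted p = 0.00185, called under every alternative run) and 0.13 ± 0.27 in WT (95% interval -0.44 to 0.71, adjusted p = 0.765).

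The interaction for Scd3 was -1.51 ± 0.39 on the log2 scale, with a 95% interval of -2.33 to -0.69. Its unadjusted p of 0.00129 became 0.164 after adjustment in edgeR's test, whereas DESeq2 gave an adjusted p of 0.0121. By edgeR the interaction was called for 0 of the 9 members, with 1 at an unadjusted p below 0.05. It was called for 0.0228% of all tested genes, 0.0171% higher and 0.00570% lower. A difference in the UVB effect on Scd3 between the genotypes was therefore called by DESeq2 and not by edgeR or limma voom.

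Scd1 and Scd3 lie on chromosome 19 and have nearly the same coding sequence. Their longest open reading frames, of 1068 and 1080 bases, were identical at 977 of 1068 aligned bases (91.5%). The longest stretch shared without a difference, taken from GENCODE M21 transcripts, is 185 bases long and starts at base 463 of the Scd1 and base 475 of the Scd3 reading frame; it is shown because reads within it fit both genes.
Scd1 and Scd3 shared: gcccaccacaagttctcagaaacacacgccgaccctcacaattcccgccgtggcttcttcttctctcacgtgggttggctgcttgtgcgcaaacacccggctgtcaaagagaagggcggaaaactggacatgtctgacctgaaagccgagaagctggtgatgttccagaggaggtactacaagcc
Of all 50-base words in the transcripts, 4.56% of those of Scd1 and 6.54% of those of Scd3 occur in another gene. The deposited tables list 0 multimapping reads in every library, so how reads from such stretches were handled is not visible in them, and the Scd3 level is uncertain on that account. Scd1 was the more abundant gene in every library, with 3.33, 2.45, 10.4 and 7.04 reads of Scd3 per 100 reads of Scd1 in KO UVB and 11.9, 21.7, 15.4 and 13.7 in KO control skin. In WT there were 12.5, 13.0, 8.23 and 15.4 with UVB and 9.56, 5.78, 19.3 and 8.95 without. The KO UVB and KO control ratios did not overlap, and the WT groups did.

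The promoter window of Scd3 (RefSeq, GRCm38.p6, chr19:44203038-44203337, plus strand) is shown because Scd3 was the one member called lower. It held none of the 7 motifs, so no letters are in capitals.
Scd3: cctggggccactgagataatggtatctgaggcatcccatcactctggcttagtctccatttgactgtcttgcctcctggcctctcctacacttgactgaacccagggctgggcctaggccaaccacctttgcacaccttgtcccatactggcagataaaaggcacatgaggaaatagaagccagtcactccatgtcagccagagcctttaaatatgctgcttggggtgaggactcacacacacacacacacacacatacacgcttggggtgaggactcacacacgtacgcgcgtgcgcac

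**Figure D2:**
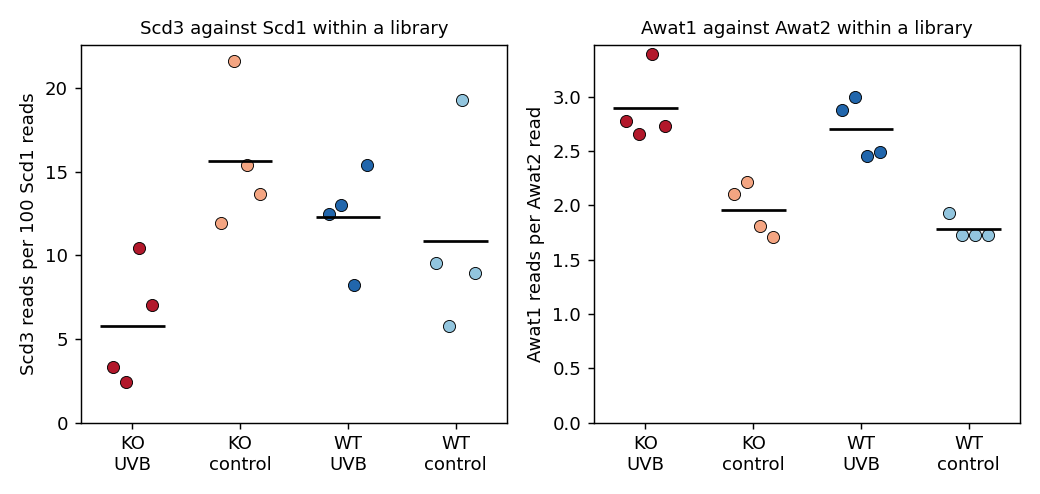
Reads of Scd3 per 100 reads of Scd1 (left) and reads of Awat1 per read of Awat2 (right) in each library of KO UVB, KO control, WT UVB and WT control skin; points are libraries and lines are group means. The Scd3 ratio is 10.4 or less in KO UVB and 11.9 or more in KO control skin, and the Awat1 ratio is 2.45 or more in every UVB library and 2.22 or less in every control library.

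Soat1 was at 286, 244, 141 and 123 CPM in KO UVB skin, against 125, 142, 129 and 103 CPM in KO control skin. Soat1 in WT was at 149, 190.2, 160.0 and 176 CPM with UVB, against 122, 91.7, 115 and 123 CPM without. The WT groups did not overlap, and in KO libraries 1 and 2 with UVB stood above all controls while libraries 3 and 4 lay within their range. UVB against control gave 0.67 ± 0.21 in KO (log2, adjusted p = 0.0267) and 0.58 ± 0.21 in WT (adjusted p = 0.0718). The KO call ended without KO UVB library 1 (0.44, adjusted p = 0.107), KO UVB library 2 (0.57, 0.0829), KO control library 3 (0.68, 0.0529) or KO control library 4 (0.60, 0.0741), with no filter on low counts (0.0628) and in a fit of the KO groups alone (0.0841). The WT value was called without KO UVB library 1 (0.60, 0.0326), 3 (0.59, 0.0492) or 4 (0.60, 0.0317), which belong to neither of the groups compared, by DESeq2 (0.0438) and in a fit of the WT groups alone (0.00308). The interaction for Soat1 was 0.09 ± 0.30 (95% interval -0.55 to 0.73, adjusted p = 0.925), so a difference between the genotypes was not shown.

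Mc5r was at 39.4, 28.1, 19.2 and 12.6 CPM in KO UVB skin, against 17.7, 22.1, 20.5 and 15.1 CPM in KO control skin. Mc5r in WT was at 24.6, 44.2, 35 and 45.6 CPM with UVB, against 24.6, 17.3, 24 and 26.2 CPM without. The groups overlapped in both genotypes, and the KO UVB libraries spread both above and below the KO controls. The log2 fold change was 0.39 ± 0.28 in KO (95% interval -0.20 to 0.99, adjusted p = 0.301) and 0.69 ± 0.28 in WT (0.10 to 1.28, adjusted p = 0.0934). In WT it was called without WT UVB library 1 (0.87, 0.0498), KO UVB library 1 (0.71, 0.0464) or KO UVB library 4 (0.71, 0.0414), and in a fit of the WT groups alone (0.0282). Of the other melanocortin genes, Mrap, which encodes a receptor accessory protein, was tested and not called with UVB (0.20 ± 0.30 in KO and -0.62 ± 0.30 in WT). Pomc, which encodes the melanocortin precursor, Mc1r and Mrap2 were too low to be tested, at 0.500 CPM or less in every library.

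Krt79 was at 2086, 1613, 1273 and 792 CPM in KO UVB skin, against 612, 801, 742 and 781 CPM in KO control skin. Krt79 in WT was at 1072, 1391, 1573 and 1497 CPM with UVB, against 931, 626, 999 and 1029.7 CPM without. The WT groups did not overlap, and in KO the fourth UVB library lay within the control range. Krt79 rose by 0.97 ± 0.24 on the log2 scale in KO (adjusted p = 0.00609) and was at 0.63 ± 0.24 in WT (adjusted p = 0.0771). That value was called without KO UVB library 1 (0.64, 0.0391) or 4 (0.64, 0.0241), by DESeq2 (0.63, 0.0405) and in a fit of the WT groups alone (0.64, 0.0207). The interaction for Krt79 was 0.35 ± 0.33 (95% interval -0.36 to 1.06, adjusted p = 0.697).

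Without UVB, no member was called between KO and WT skin. Of the 9 members 0 were called by edgeR, as by DESeq2 and limma voom, and 1.69% of all tested genes were called by edgeR, 0.416% higher and 1.28% lower. The libraries of the 2 genotypes overlapped for all 9 members, as against 7.68% of all tested genes without overlap. One member, Scd1, had an unadjusted p below 0.05, with a log2 fold change of -0.55 ± 0.22 (95% interval -1.03 to -0.08, adjusted p = 0.336). The values of the other 8 members ran from -0.29 ± 0.24 for Krt79 and -0.29 ± 0.28 for Mc5r to 0.14 ± 0.21 for Soat1. Their intervals reached at most -0.88 downwards, for Mc5r, and 0.69 upwards, for Elovl3, so differences within these bounds are not excluded. Far2, which lies on chromosome 6 as Tnfrsf1a does, was at 0.00 ± 0.21.

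With UVB, Scd3 was lower in KO than in WT skin, by a log2 fold change of -1.41 ± 0.28 (fold 0.377, adjusted p = 0.0272), and the groups did not overlap. It was the 1 member called of 9, where 0.856% of all tested genes were called, 0.496% higher and 0.359% lower. It was also the 1 member without overlap, against 8.16% of all tested genes. The adjusted p ran from 5.09e-05 to 0.0804 over the 24 alternatives, and the value stayed between -1.60 and -1.21. It was not called without KO UVB library 2 (adjusted p = 0.0566) or without WT UVB library 1 (0.0521), 2 (0.0804) or 4 (0.0708), with no filter on low counts (0.0714) and in a fit of the UVB groups alone (0.0792). Mc5r had a log2 fold change of -0.59 ± 0.28 with an unadjusted p of 0.0493 and an adjusted p of 0.306. The other 7 members ran from -0.25 ± 0.21 for Far2 to 0.23 ± 0.21 for Soat1. This comparison shares its libraries with the UVB comparisons, so its values for Scd3 are not independent of those above.

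**Figure D3:**
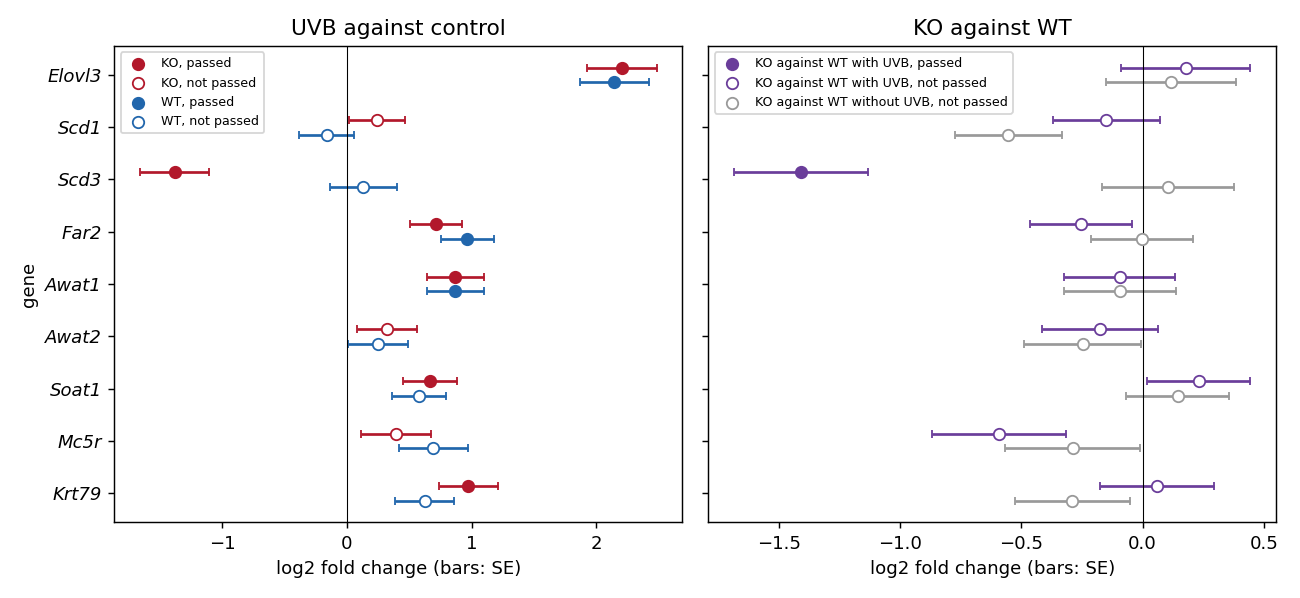
Log2 fold changes of the 9 genes (horizontal axes; bars are SE) for UVB against control in KO and WT skin (left) and for KO against WT skin with and without UVB (right); filled circles passed an adjusted p below 0.05. Elovl3 lies above 2 in both genotypes, and Scd3 is the gene that lies below -1, in KO with UVB and in KO against WT with UVB.

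The KO UVB libraries differed among themselves. Libraries 1 and 2 exceeded libraries 3 and 4 in 8 of the 9 members, and for Scd3 libraries 3 and 4 were the higher. This split was chosen after the values were seen, and its share over all tested genes was not computed. Outside the members, some gene lists split in the same way and others did not. Summed CPM of 20 cholesterol synthesis genes was 5982, 4729, 3004 and 2442 in the KO UVB libraries, and that of 15 epidermal differentiation genes was 52860.1, 31151, 22834 and 16587. The adipocyte sum, at 5023, 6130, 4156 and 9819, and the muscle sum, at 10298, 14182, 13692 and 17427, did not split this way. The macrophage sum, at 1802, 3180, 4281 and 3782, split the other way, with libraries 3 and 4 the higher. The part of these differences between libraries in the members' values was not tested. In WT UVB skin the summed cholesterol synthesis level ran from 3506 to 4755 CPM.

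Other genes of lipid synthesis were read from lists written from general knowledge. List counts with UVB are read beside the shares of all tested genes called, 32.3% in KO and 18.8% in WT. In cholesterol synthesis, 16 of 20 tested genes were called higher and 0 lower in each genotype, with median log2 fold changes of 0.69 in KO and 0.79 in WT. In KO those with small adjusted p-values included the mevalonate pathway genes Idi1 (1.46 ± 0.27, adjusted p = 0.000996), Pmvk (0.81 ± 0.17) and Mvk (0.65 ± 0.14). In WT they belonged to Hsd17b7 (1.60 ± 0.23, adjusted p = 0.000249), Stard4 (1.09 ± 0.20), which carries sterol between membranes, Mvk (0.71 ± 0.14) and Sqle (0.94 ± 0.19), which encodes squalene epoxidase. The genes are used in many skin cells and are not markers of sebocytes.

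Fatty acid and ester synthesis was mixed. In KO 8 of 25 tested genes were called higher and 1 lower, and in WT 7 higher and 3 lower, with medians of 0.15 and 0.21. Of all tested genes, 17.2% were called higher and 15.1% lower in KO, and 10.2% higher and 8.60% lower in WT. In KO, Far1, the second fatty acyl-CoA reductase, rose by 1.15 ± 0.14 (adjusted p = 7.1e-05), and the elongases Elovl4 (1.15 ± 0.20), Elovl6 (1.52 ± 0.33) and Elovl7 (1.04 ± 0.22) also rose. The elongases of the list did not all rise in KO. Elovl5 had a mean of 227 ± 71.5 CPM in KO UVB and 361 ± 53.3 in KO control skin (SD, n = 4 each). In WT it was at 400 ± 70.7 CPM with UVB and 349 ± 45.8 without. Elovl1 was at 169 ± 22.5 CPM in KO UVB and 165 ± 16.3 in KO control skin. In WT, Elovl4 (1.28 ± 0.20, adjusted p = 0.000532), Far1 (0.80 ± 0.14) and Elovl7 (1.10 ± 0.22) rose, and the fatty acid desaturase Fads1 fell (-0.52 ± 0.10). Fasn, which encodes fatty acid synthase, was at -0.07 ± 0.22 in KO (adjusted p = 0.832) and fell by 0.68 ± 0.22 in WT (adjusted p = 0.0421). By edgeR the interaction was called for 0 of the 25 tested genes of this list, with 7 at an unadjusted p below 0.05. Dgat2l6, a relative of the wax synthases, was at 0.20 ± 0.20 in KO and 0.51 ± 0.20 in WT and was not called.

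Of 10 further sebocyte markers, 5 were called higher in KO and 4 in WT, and 0 lower. Of all tested genes, 17.2% were called higher in KO and 10.2% in WT. The log2 fold change was positive for 7 of the 10 markers in KO and 8 in WT, and only called markers are named here. Hsd3b6, a steroid-converting enzyme, rose most, by 1.5 ± 0.31 in KO (adjusted p = 0.0023) and 1.47 ± 0.31 in WT (0.00418). The lipid droplet genes Plin2 (0.63 ± 0.16 in KO, 0.59 ± 0.16 in WT) and Cidea (0.63 ± 0.19 and 0.72 ± 0.18) rose in both genotypes. Apoc1 rose in both (0.35 ± 0.12 and 0.40 ± 0.12), and Mgst1 was called in KO (0.40 ± 0.13, adjusted p = 0.0244) but not in WT (0.20 ± 0.13, adjusted p = 0.291). The interaction for Mgst1 was 0.20 ± 0.18 (adjusted p = 0.665), so a difference between the genotypes was not shown.

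Of 14 regulators of the gland, 1 was called higher and 2 lower in KO, and 1 higher and 0 lower in WT. The shares of all tested genes called were 32.3% in KO and 18.8% in WT. Prdm1, which encodes the repressor BLIMP1, was called higher in KO (0.55 ± 0.15, adjusted p = 0.00972) and in WT (0.67 ± 0.15, adjusted p = 0.00523). Fgfr2, an epithelial growth factor receptor, fell in KO (-0.91 ± 0.18, adjusted p = 0.00163). Pparg, the nuclear receptor that drives sebocyte differentiation, was at 0.14 ± 0.14 in KO (adjusted p = 0.494) and 0.16 ± 0.14 in WT (adjusted p = 0.475). Among 7 genes of the upper follicle and duct, Defb6 rose in both (0.54 ± 0.11 and 0.37 ± 0.11), while in KO Cst6 rose (0.47 ± 0.16) and the stem cell gene Lgr6 fell (-1.05 ± 0.23). By edgeR the interaction of genotype and UVB was called for 0 of the 14 regulators and 0 of these 7 genes. At an unadjusted p below 0.05 stood 1 and 2 of them, so a difference between the genotypes was not shown. Between KO and WT skin, 0 of the 10 sebocyte markers and 0 of the 14 regulators were called by edgeR in either setting; at an unadjusted p below 0.05 stood 0 of the markers in both, and 3 of the regulators with UVB and 0 without.

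**Figure D4:**
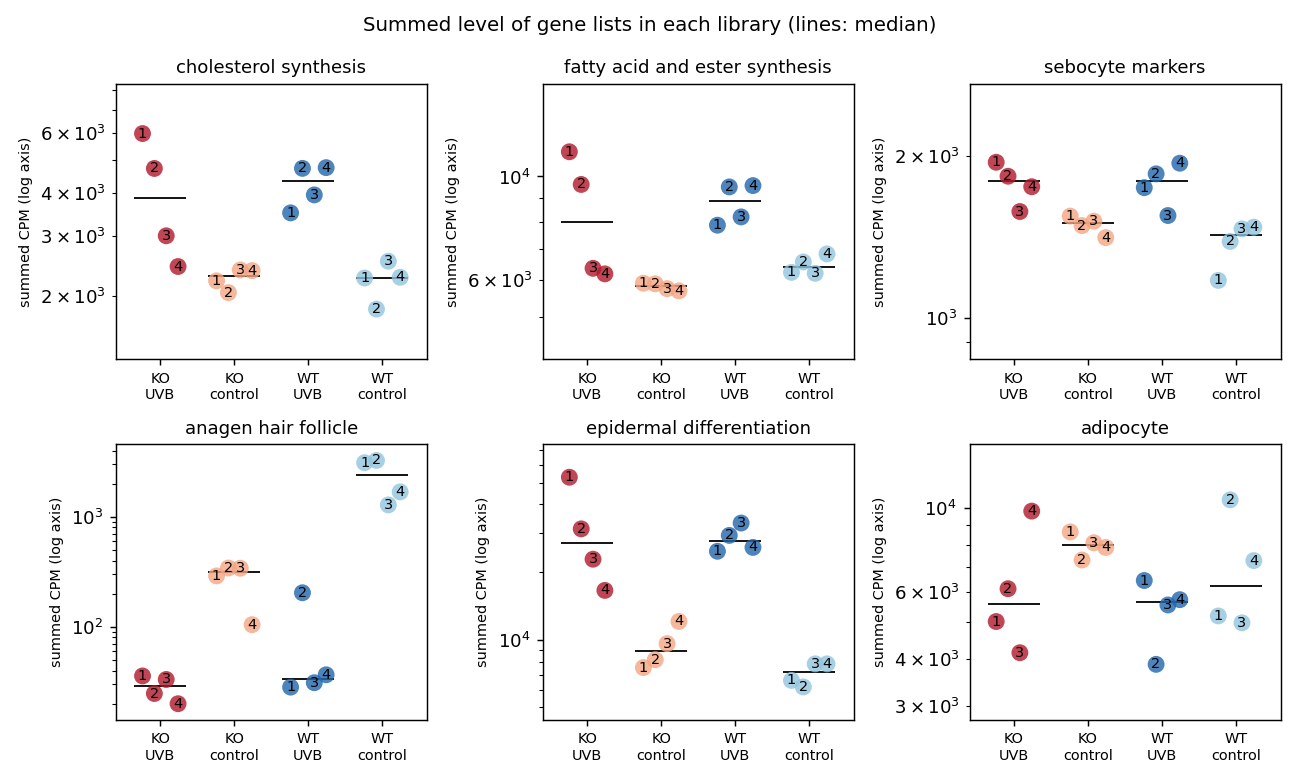
Summed CPM (log axes) of 6 gene lists in each library of KO UVB, KO control, WT UVB and WT control skin; digits are library numbers and lines are group medians. Cholesterol synthesis and epidermal differentiation are higher in the UVB groups of both genotypes, and the anagen genes are highest in WT control skin, at 1283 to 3258 CPM.

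Genes of other cell types moved with UVB as well. Of 22 anagen follicle genes, 21 were called lower in KO and 22 in WT with UVB, with no gene of the list at 0 in any group. Without UVB, 18 of the 22 were lower in KO than in WT. Epidermal differentiation genes rose, 14 of 15 in KO and 13 of 15 in WT, with 1 called lower in KO. Their summed CPM was 16587 to 52860.1 in KO UVB, 7526 to 12067 in KO control, 24761 to 33068 in WT UVB and 6172 to 7818 in WT control skin. Muscle genes fell in KO, 7 of 9, and 1 of 9 fell in WT, with summed CPM of 10298 to 17427 in KO UVB, 21376 to 34336 in KO control, 14006 to 20855 in WT UVB and 17647 to 23424 in WT control skin. Of 10 macrophage genes, edgeR called 0 in KO (1 at an unadjusted p below 0.05) and 1 lower in WT, with summed CPM of 1802 to 4281 in KO UVB, 1921 to 3304 in KO control, 1639 to 2409 in WT UVB and 2115 to 3719 in WT control skin. The part of these tissue differences in the members' values was not tested.

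The genes most like the members were ranked over the 16 libraries by Pearson's r with the mean standardised log2 CPM of Awat1, Awat2 and Elovl3, among 15229 genes. They were Cidea (r = 0.970), Elovl7 (0.970), Gm12551 (0.961), Sdr16c6 (0.958), Ces4a (0.958) and Plekha8 (0.936). After group means were subtracted the list was Aadacl4 (0.961), Ces4a (0.945), Cidea (0.939), Elovl7 (0.937), Sdr16c6 (0.937) and Lpcat3 (0.912), so 4 genes were in both. Over the 16 libraries, Far2 (0.942), Krt79 (0.822), Soat1 (0.803) and Mc5r (0.693) followed the same pattern more than Scd1 (0.101) and Scd3 (-0.236) did. High values were not limited to sebaceous genes. The epidermal differentiation genes Krt1 (0.834) and Krt10 (0.825) and the cholesterol synthesis gene Cyp51 (0.881) also had them. Flg2 (-0.346) and Sc5d (0.392) of the same lists did not. With group means subtracted, Far2 was at 0.8996, Krt79 at 0.605, Soat1 at 0.7097 and Mc5r at 0.708. Scd1 was then at 0.0613 and Scd3 at 0.113. All values of a library share its depth and tissue make-up, and the ranking is a description.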

How the data were processed

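Each of the 16 libraries has a deposited table of raw read counts per gene, written by STAR on GRCm39 per the submitters' processing notes; no STAR version or annotation release is given in the sources used here. Libraries were poly(A)-enriched and directional per the labels. The reverse-strand column was used (95.7% of stranded reads). Versioned Ensembl identifiers were matched to symbols with a GENCODE M21 table (52083 of 55359 matched; unmatched ones hold 1.23% of reads). A further deposited table with 17 value columns without names was not used.

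Counts were filtered with filterByExpr and TMM-scaled, and 1 model of the 4 groups was fitted with edgeR 4.0.16 (robust quasi-likelihood, R 4.3.3), tested across 17531 genes with Benjamini-Hochberg adjustment. The SE is the log2 fold change divided by the square root of F. Alternatives used DESeq2 1.42.0, limma voom 3.58.1, other scaling, filter, strand column and fit, and libraries left out. Exon lengths come from GENCODE M21. The fitting was tested on simulated data. Named genes from each list were the called ones with the smallest adjusted p (up to 4) plus Pparg, Mgst1, Fasn and Dgat2l6; some genes under this rule are not reported here. Members and lists were chosen with earlier results of these data known. Of 164 list symbols 161 were found.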

Additional observations from a re-analysis of the deposited data

How the results depend on the processing

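Over the alternatives, 982 of 1071 member values kept their direction and side of the threshold, 16 lost and 14 gained a call, and 59 without a call changed sign, among them Far2 in KO against WT without UVB under 16 of 24 alternatives and the interaction for Awat1 under 13 of 23. No value with a call changed sign. In WT UVB against control, 3 members were called, against 5 by DESeq2 and 6 in a fit of the 2 groups alone, and 2 to 6 with 1 library left out. In KO UVB against control, 6 were called, and 4 to 6 with 1 library left out. In KO against WT with UVB, 1 was called, against 0 with no filter on low counts, 0 in a fit of the 2 groups alone, 0 without WT UVB library 2 and KO UVB library 4 together (chosen after seeing the data), and 0 to 1 with 1 library left out. In KO against WT without UVB the count was 0 to 0. The interaction count was 0, against 1 by DESeq2, and 0 to 0 with 1 library left out. The cause of these changes was not tested.

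Libraries of different groups share replicate numbers. Deviations of same-numbered libraries from their group means correlated at -0.40 to 0.22 over 24 pairs, with 3 above 0.1, so the numbers were not taken to pair them. With the replicate number as a block, the counts were 3, 6, 0, 1 and 0 for UVB in WT, UVB in KO, genotype without UVB, genotype with UVB and the interaction. No pair of libraries within a group agreed within sampling noise (chi-square per degree of freedom 14.1 to 149). Mc5r, with 273 reads in its lowest library, has the least depth of the members.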

Other observations

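Aadacl4, a gene of the arylacetamide deacetylase family, followed Awat1, Awat2 and Elovl3 most closely within groups and yet differed between genotypes. Its mean level was 38.9 ± 13.9 CPM in KO UVB, 11.9 ± 0.314 in KO control, 197 ± 37.3 in WT UVB and 129 ± 60.6 in WT control skin (SD, n = 4 each). It was lower in KO than in WT by log2 fold changes of -2.34 ± 0.30 with UVB (adjusted p = 0.000886) and -3.44 ± 0.32 without (adjusted p = 3.93e-05), by edgeR's quasi-likelihood test. With UVB it rose in KO by 1.70 ± 0.31 (adjusted p = 0.00095) and was at 0.61 ± 0.29 in WT (adjusted p = 0.153), and the interaction was 1.10 ± 0.41 (adjusted p = 0.29). Aadacl4 lies near Tnfrsf1b on chromosome 4, at bases 144613707 to 144623398 against 145213463 to 145246870 (GRCm38). The part of that linkage in the genotype difference of Aadacl4 was not tested.

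Sdr16c6, a short-chain dehydrogenase gene, was named for its likeness to Awat1, Awat2 and Elovl3 over the 16 libraries, so its levels are a description. It was at 626 ± 160.5 CPM in KO UVB, 371 ± 37.0 in KO control, 723 ± 129 in WT UVB and 345 ± 82.2 in WT control skin.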
